A study of Mus musculus with 62 samples.

Results

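A set of 10 transcription factor genes of striatal neurons was followed across every library: Bcl11b, Foxp1, Foxp2, Ebf1, Ikzf1, Meis2, Rarb, Rxrg, Mef2c and Foxo1. They were taken from the count table by the Ensembl identifiers that carry these symbols, and all 10 were found among 48795 genes. All 10 passed the filter on low counts in every fit. Most neurons of the striatum are GABAergic projection neurons, and these neurons depend on a small set of transcription factors while they are born, while they split into direct-pathway and indirect-pathway types, and for the upkeep of their adult gene expression. Loss of expression of genes that mark these neurons is a known feature of Huntington's disease and of its mouse models. The 10 genes cover zinc-finger factors (Bcl11b, Ikzf1), forkhead factors (Foxp1, Foxp2, Foxo1), a helix-loop-helix factor (Ebf1), a homeobox factor (Meis2), a pair of nuclear receptors for retinoids (Rarb, Rxrg) and a MADS-box factor (Mef2c).

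RNA from mouse striatum was sequenced in 62 libraries of 16 groups. In the first series, R6/2 mice, which carry a transgene of mutant human HTT, and NCAR mice were given PHP.eB AAVs at 4 weeks of age and their striatum was taken at 11 weeks. The groups were R6/2 A-ZFP (3 libraries), R6/2 A-Delta, NCAR A-ZFP, NCAR A-Delta, R6/2 N-ZFP, R6/2 N-Delta, NCAR N-ZFP and NCAR N-Delta (4 libraries each), all of bulk RNA. The other series used knock-in zQ175 animals and WT animals, which had N-ZFP or N-Delta injected into the striatum at 6 months and were examined at 12 months, as bulk RNA and as neuronal RNA. These groups also held 4 libraries each, except WT N-ZFP bulk with 3. ZFP viruses carry a zinc-finger repressor of mutant Huntingtin, and Delta viruses are their controls, so every group used here had received a virus and none was uninjected. The labels do not spell out NCAR, which is read here as animals without the transgene. They give astrocyte as the target cell of the A viruses and neuron as that of the N viruses, but the treatment text of the first series describes its N viruses as astrocytic as well; the cell-type labels were followed. The promoters that drive the repressors and the share of cells reached are not given in the sources used here. Column names of the count table call the neuronal libraries IP and the bulk libraries of that series Input, and how neuronal RNA was isolated is not described further in the sources used here. No label says whether libraries came from single or pooled animals, so p values measure the spread between these samples.

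Counts per library were 49237583 to 101295189 in bulk RNA of R6/2 and NCAR mice, 8664055 to 11211827 in bulk RNA of zQ175 and WT mice, and 4610476 to 12200813 in neuronal RNA. The shallowest value of any of the 10 genes was 13 counts, for Ikzf1, and every other gene had at least 165 counts in every library. Markers of striatal neurons were abundant: 16 genes of striatal projection neurons had a summed level, in CPM (counts scaled to a fixed library total), of 11560 to 13940 in WT N-Delta bulk libraries, against 149 to 342 CPM for 6 genes of cortical excitatory neurons. Mouse Htt, the endogenous gene, was not called in any of the 8 comparisons of a ZFP virus with its Delta virus, with adjusted p values from 0.0512 in NCAR N-ZFP mice up to 1. In those NCAR mice the mean of Htt was higher, not lower, under the repressor, at 199.7 ± 37.5 CPM under N-ZFP and 151 ± 23.7 CPM under N-Delta (± SD). The NCAR N-Delta libraries held relatively few reads of long transcripts, and the part of this in the Htt values was not tested. In R6/2 mice the mean of Htt was instead lower under N-ZFP, at 195.8 ± 55.5 CPM, than under N-Delta, at 238 ± 23.4 CPM. In zQ175 mice, whose mutant allele is counted under the same gene, it stood at 296, 241, 318 and 237 CPM under N-ZFP and 261, 272, 338 and 270.4 CPM under N-Delta in neuronal libraries, and these ranges overlapped. The human transgene of R6/2 mice has no row of its own, so the counts offer no check of the repressor there. A pair of features of the libraries recur in the results: neuronal N-ZFP libraries 1 and 3 of both genotypes had mitochondrial shares of 0.801% to 4.31%, against 0.167% to 0.466% in the other neuronal libraries, and all 4 NCAR N-Delta libraries, together with some N-ZFP libraries, held relatively few reads of long transcripts.

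In the mm10 assembly and GENCODE M21 annotation the genes lie on 8 chromosomes. The zinc-finger genes are Bcl11b (ENSMUSG00000048251) on chromosome 12 from 107910403 to 108003602 on the minus strand and Ikzf1 (ENSMUSG00000018654) on chromosome 11 from 11685003 to 11772926 on the plus strand. The forkhead genes are Foxp1 (ENSMUSG00000030067) on chromosome 6 from 98925338 to 99522721 on the minus strand, and Foxp2 (ENSMUSG00000029563) on chromosome 6 from 14901349 to 15441977 and Foxo1 (ENSMUSG00000044167) on chromosome 3 from 52268336 to 52353221 on the plus strand. Plus-strand genes are also Ebf1 (ENSMUSG00000057098) on chromosome 11 from 44617317 to 45008091, Rxrg (ENSMUSG00000015843) on chromosome 1 from 167598384 to 167639623 and Mef2c (ENSMUSG00000005583) on chromosome 13 from 83504034 to 83667080, and minus-strand genes Meis2 (ENSMUSG00000027210) on chromosome 2 from 115863064 to 116065839 and Rarb (ENSMUSG00000017491) on chromosome 14 from 16430839 to 16819156. They span from 41.2 kb (Rxrg) to 597 kb (Foxp1). Foxp1 shares 300 bases of exon with Gm20696 on its own strand, which had 7205 counts in all libraries against 751601 for Foxp1, and Foxo1 shares 674 bases with the antisense gene Gm20402, which had 39 counts against 91096.

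Set per kilobase of merged exons, the genes spanned a wide range of levels in bulk tissue. Merged exons pool all annotated transcripts, so the orders given depend on this choice of length. For Foxp1, Meis2 and Mef2c they come to 13.8, 12.0 and 15.7 kb, with longest transcripts of 7177, 5498 and 6277 bases. For Bcl11b both are 8111 bases, and for Rxrg they are 2.30 kb and 2110 bases. Another length was not tried. In WT N-Delta bulk libraries Rxrg had 56.7 ± 7.63 CPM per kb, Bcl11b 51.9 ± 8.65, Meis2 43.8 ± 2.87 and Foxp1 39.3 ± 6.39 CPM per kb (mean ± SD, n = 4). Neighbours among these 4 genes did not differ by more than the larger SD. Rarb followed, below Foxp1 by more than that, at 24.0 ± 1.73 CPM per kb, Mef2c at 15.9 ± 1.02 and Foxo1 at 9.10 ± 2.53 CPM per kb. Foxp2 had 7.47 ± 0.556 CPM per kb, within the spread of Foxo1, while Ebf1 at 2.78 ± 0.0812 and Ikzf1 at 1.23 ± 0.259 CPM per kb were the least abundant. In the younger NCAR A-Delta striatum the order was Rxrg, Bcl11b, Mef2c, Meis2, Foxp1, Rarb, Foxp2, Foxo1, Ebf1 and Ikzf1, from 40.7 ± 10.3 down to 0.859 ± 0.114 CPM per kb. Mef2c, a factor of activity-dependent transcription that is also strong in cortical neurons, stood above Meis2 and Foxp1 there at 32.9 ± 4.99 CPM per kb but below both in the WT bulk libraries. The 2 series differ in age, virus route and depth, so this shift was not tested; summed markers of cortical excitatory neurons were 477 to 805 CPM in NCAR A-Delta libraries and 149 to 342 CPM in WT N-Delta bulk libraries.

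Most of these genes were lower in bulk striatum of zQ175 mice. Under N-Delta 6 of the 10 were lower in zQ175 than in WT mice and 1 was higher, where 9.57% of all 17114 genes tested were lower and 6.44% higher. Foxo1, Rxrg, Bcl11b, Rarb, Foxp1 and Meis2 fell, by 1.82-fold for Foxo1 to 1.27-fold for Meis2, Ebf1 rose by 1.20-fold, and Foxp2, Ikzf1 and Mef2c were not called. The median log2 change of the 10 was -0.43, against 0.002 over all genes. A lower value in bulk RNA cannot tell fewer cells of a type from less RNA per cell. Calls rest on edgeR quasi-likelihood F tests with Benjamini-Hochberg adjustment over all genes tested at an adjusted p under 0.05, and changes are log2 fold changes ± SE.

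Bcl11b encodes CTIP2, the zinc-finger factor that projection neurons need for their differentiation. It had 249.9, 288, 248 and 257 CPM in the 4 zQ175 N-Delta libraries, against 514, 372, 436 and 361 CPM in the 4 WT N-Delta libraries. Every zQ175 library lay below every WT library, and the WT values were the more scattered. The change was -0.69 ± 0.10 (adjusted p = 4.92e-05). Foxp1, the forkhead factor found in both classes of projection neuron, behaved in the same way, with 385, 397, 363 and 374 CPM in zQ175 and 665, 484, 538 and 473 CPM in WT mice and no overlap (-0.51 ± 0.10, adjusted p = 0.000916). Its relative Foxp2, which is richer in direct-pathway neurons and is known in humans for its link to speech, differed little. Foxp2 had 106, 119, 109 and 114 CPM in zQ175 and 134, 119, 112 and 124 CPM in WT mice, ranges that met, and its change of -0.13 ± 0.07 had a 95% interval of -0.27 to 0.01. Meis2, a homeobox factor of neurons born in the lateral ganglionic eminence, had 411, 407, 402 and 438 CPM in zQ175 libraries and 578, 504, 504 and 523 CPM in WT libraries. The groups stood apart here too, although the step was smaller (-0.35 ± 0.06, adjusted p = 0.000216).

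The pair of subtype factors did not follow. Ebf1, which in mice takes part in the differentiation of direct-pathway neurons, had 32.5, 31.8, 27.4 and 38.4 CPM in zQ175 libraries and 26.4, 28.2, 26.8 and 27.2 CPM in WT libraries. A single zQ175 library lay inside the narrow WT range and the other 3 above it, and the rise of 0.26 ± 0.09 passed narrowly (adjusted p = 0.0448). It was lost when any library but zQ175 library 3 was left out, with adjusted p values up to 0.198, and also with DESeq2, without the filter, with the 2 groups fitted alone and with a replicate block. Ikzf1, the Ikaros factor, which in mice takes part in the differentiation of enkephalin neurons and is otherwise known from lymphoid cells, had 5.43, 7.28, 6.43 and 6.64 CPM in zQ175 mice and 8.48, 4.99, 7.65 and 7.34 CPM in WT mice. These values overlapped and its interval of -0.49 to 0.20 was wide. Mef2c moved least, with 251, 240.2, 235 and 235 CPM in zQ175 and 245, 259, 264 and 228 CPM in WT mice and an interval of -0.17 to 0.07.

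The retinoid receptors gave the firmest differences of the set. Retinoic acid receptors bind DNA as dimers with retinoid X receptors, and retinoic acid made in and around the striatum supports projection neuron differentiation. Rarb is also a classical target of its own receptor, through a direct repeat next to its start site. The promoter printed here is shown because it carries that repeat. Capitals mark the match to the string searched, 2 copies of GTTCA with 6 bases between them. This string does not mark the ends of the receptor's binding sites, so the 6 bases need not be their spacing. The sequence is RefSeq's for GRCm38.p6 (chr14:16575427-16575726, minus strand, 250 bases before to 50 bases after the start), written 5′ to 3′.
Rarb promoter: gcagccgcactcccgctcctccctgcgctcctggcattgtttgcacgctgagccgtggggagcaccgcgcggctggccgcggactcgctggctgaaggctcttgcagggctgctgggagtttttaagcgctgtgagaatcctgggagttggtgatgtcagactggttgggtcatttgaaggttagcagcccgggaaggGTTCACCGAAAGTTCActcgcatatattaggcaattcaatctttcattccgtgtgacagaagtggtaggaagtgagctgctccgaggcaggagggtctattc
The match covers bases 199 to 214 of the window and ends 36 bases before the start. Searched on both strands, this spaced repeat was present in 25 of 32851 promoters of the same length (0.0761%), and the exact 16 bases shown in capitals were found in the Rarb promoter only. No other member's promoter matched it among the 16 promoters listed for 9 of the 10 genes. A match is a run of letters and says nothing of binding in these samples.

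Rarb had 84.3, 79.2, 78.0 and 95.04 CPM in zQ175 N-Delta bulk libraries and 136, 127, 114 and 128 CPM in WT N-Delta bulk libraries. The highest zQ175 library was still below the lowest WT library (-0.59 ± 0.07, adjusted p = 6.68e-06). Rxrg, its possible partner, had 75.2, 69.8, 72.7 and 73.3 CPM in zQ175 and 155, 126, 113 and 127 CPM in WT mice. The zQ175 values were tightly grouped and far from the WT values (-0.84 ± 0.08, 1.79-fold lower, adjusted p = 6.59e-07). Exons of Rarb overlap those of Top2b on the opposite strand over 1793 bases, Top2b had more counts in all (451111 against 208291), and it is not stated whether counting used strand, so reads of the shared stretch may not all be assigned to the right gene. Foxo1, the forkhead factor that insulin signalling holds out of the nucleus, had 40.2, 51.4, 42.6 and 39.3 CPM in zQ175 and 105, 58.6, 88.3 and 63.4 CPM in WT libraries. The WT libraries were widely spread, yet none reached down to the zQ175 range (-0.86 ± 0.16, adjusted p = 0.000956). Summed markers of striatal projection neurons moved with these genes, at 5821 to 6217 CPM in zQ175 and 11560 to 13940 CPM in WT libraries, and 15 of the 16 markers were lower. Other neuronal markers were lower too, with 5 of 6 for striatal interneurons (174.5 to 184 CPM in zQ175 and 206 to 246 CPM in WT libraries), 4 of 6 for cortical excitatory neurons (median -0.82) and 3 of 4 for neurons in general. Their part in the falls of the transcription factors was not tested.

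**Figure D1:**
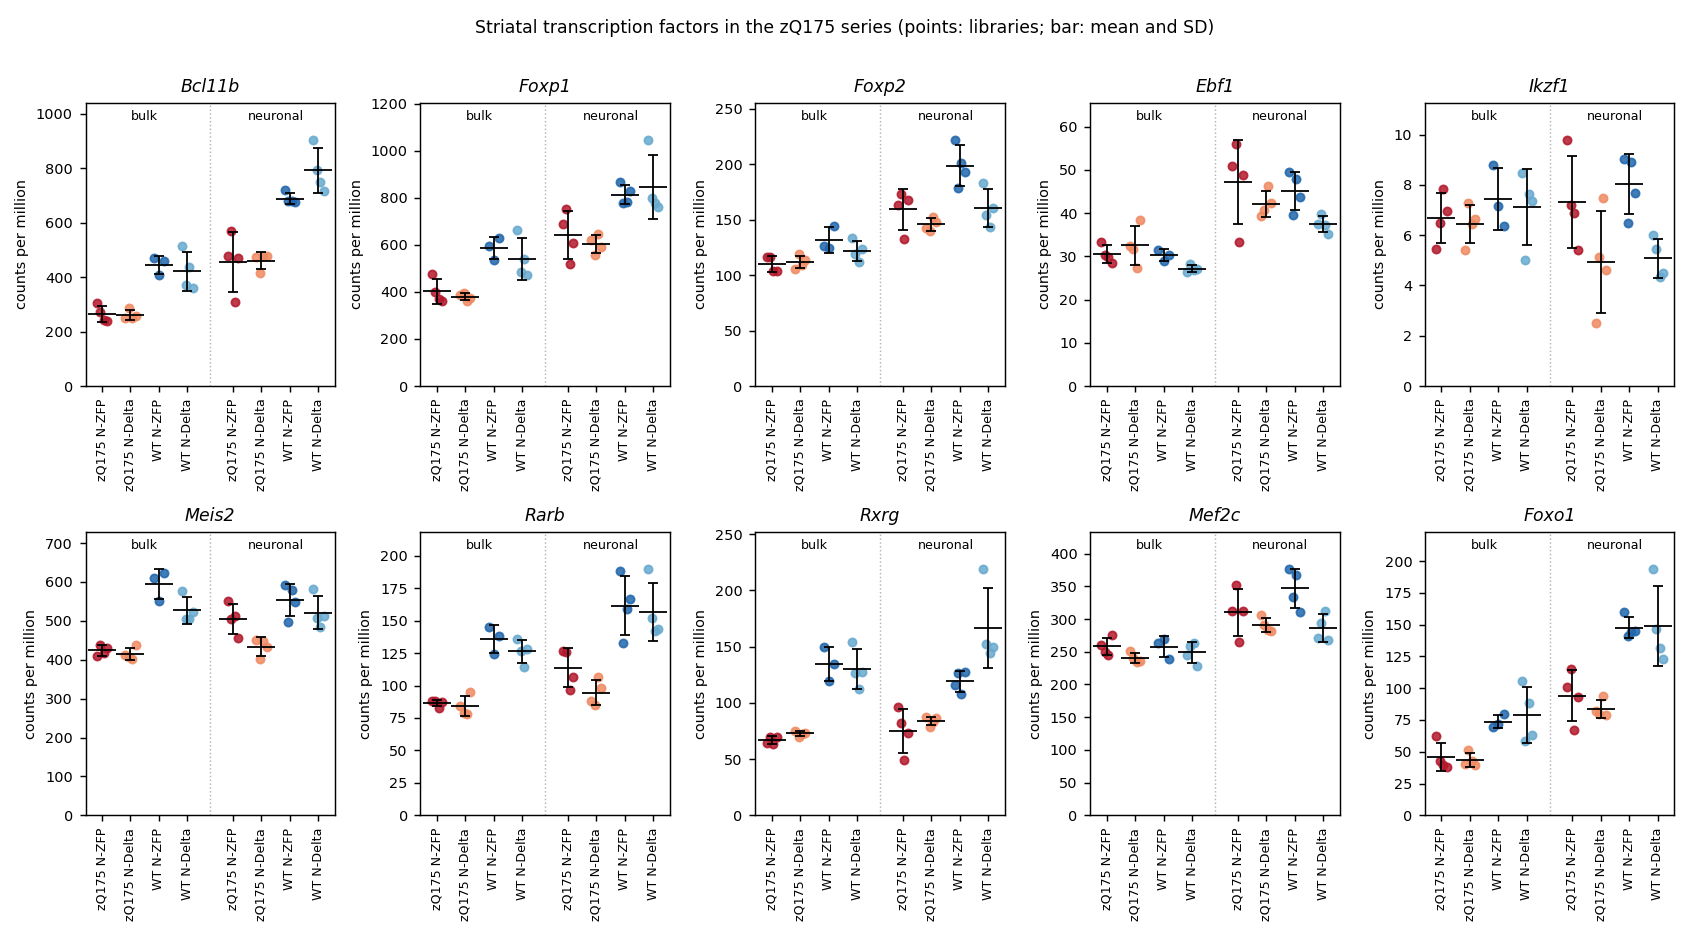
CPM (y axis, from 0) of each transcription factor in every library of the zQ175 series, with bulk groups left and neuronal groups right of the dotted line; points are libraries, bars the group mean and SD. Rxrg in zQ175 N-Delta bulk libraries lay between 69.8 and 75.2 CPM, below all WT bulk libraries, while Mef2c overlapped between the genotypes.

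The same comparison in neuronal RNA gave 5 lower genes and none higher, where 6.03% of 15815 genes were lower and 3.33% higher. The median log2 change was -0.38 for the 10 and 0.01 for all genes. Rxrg had 87.1, 78.8, 82.8 and 86.4 CPM in zQ175 and 219, 152, 144 and 149 CPM in WT neuronal libraries. WT library 1 stood well above its group, but the other 3 WT libraries also cleared every zQ175 library (-0.99 ± 0.16, adjusted p = 0.00074). Rarb had 87.7, 85.4, 106 and 97.7 CPM in zQ175 and 189.9, 152, 142 and 143 CPM in WT neuronal libraries (-0.73 ± 0.12, adjusted p = 0.00101). Bcl11b had 474, 415, 479 and 476 CPM in zQ175 and 905, 794, 751 and 718 CPM in WT libraries (-0.78 ± 0.14, adjusted p = 0.00132). In both genes the ranges were well separated. Foxo1 had 81.9, 79.7, 93.9 and 78.5 CPM in zQ175 and 194, 147, 132 and 123 CPM in WT libraries, again apart (-0.83 ± 0.15, adjusted p = 0.00151). Foxp1 had 622, 558, 644 and 593 CPM in zQ175 and 1047, 799, 778 and 761 CPM in WT libraries (-0.49 ± 0.12, adjusted p = 0.0146). That call was lost without WT library 1 (-0.37, adjusted p = 0.0699) or without zQ175 library 2 (-0.45, adjusted p = 0.0662), and without the filter on low counts.

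Meis2 did not pass in neuronal RNA (-0.26 ± 0.08, adjusted p = 0.0609), although its zQ175 values of 452, 401, 449 and 434 CPM lay below all WT values of 582, 507, 483 and 513 CPM. With DESeq2 its adjusted p was 0.012. Foxp2, Ebf1, Ikzf1 and Mef2c overlapped between the genotypes, with intervals of -0.34 to 0.07, -0.08 to 0.44, -0.56 to 0.56 and -0.17 to 0.21 in that order. Projection neuron markers again moved along, at 8290 to 9302 CPM in zQ175 and 18390 to 22510 CPM in WT libraries (14 of 16 lower). Whether the knock-in effect differed between neuronal and bulk RNA was tested in a fit of all 31 libraries, which treats bulk and neuronal libraries as independent although same-numbered ones may come from 1 animal. None of the 10 genes and 0.0% of 17702 genes were called for this difference with edgeR; at an unadjusted p under 0.05 there were 562 genes and none of the 10, and DESeq2 called 7 genes and none of the 10. The estimates for the 10 ran from -0.13 for Rxrg to 0.18 for Ikzf1. With the shared number as a block none of the 10 was called either. For Bcl11b the interval of -0.45 to 0.31 still allows differences in either direction.

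In mice given the repressor the genotypes were again apart in bulk RNA, and whether these differences depart from those under N-Delta was not tested. Under N-ZFP 7 of the 10 genes were lower in zQ175 than in WT mice and none was higher, where 8.23% of all genes were lower and 4.69% higher. Rxrg had 64.7, 69.8, 63.6 and 69.7 CPM in zQ175 N-ZFP libraries and 150, 119 and 134 CPM in the 3 WT N-ZFP libraries (-1.01 ± 0.09, 2.01-fold lower, adjusted p = 1.64e-07). Rarb had 88.2, 87.8, 82.8 and 87.2 CPM in zQ175 and 145, 124 and 138 CPM in WT mice (-0.65 ± 0.08, adjusted p = 4.2e-06). No library crossed over in either receptor gene. Bcl11b (-0.75 ± 0.10), Foxp1 (-0.55 ± 0.10), Meis2 (-0.49 ± 0.06) and Foxo1 (-0.69 ± 0.18) fell as well, with adjusted p values of 4.27e-05, 0.000924, 8.85e-06 and 0.0117. Without WT library 4 the Foxo1 change was -0.63 and its adjusted p 0.0595. Foxp2 was also called here (-0.26 ± 0.07, adjusted p = 0.0217), with 116, 116, 104 and 104 CPM in zQ175 and 126, 124 and 145 CPM in WT mice and no overlap. Its call was lost without WT library 4 (-0.19), zQ175 library 3 (-0.22) or zQ175 library 4 (-0.22), and with a replicate block. The 16 projection neuron markers were all lower in zQ175 N-ZFP bulk libraries, at 5872 to 6558 CPM against 11870 to 14030 CPM in WT libraries.

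Neuronal RNA under N-ZFP gave 5 lower genes and none higher, where 5.29% of genes were lower and 3.67% higher. These were Rxrg (-0.66 ± 0.16), Foxo1 (-0.64 ± 0.15), Bcl11b (-0.59 ± 0.14), Rarb (-0.50 ± 0.12) and Foxp2 (-0.32 ± 0.10), with adjusted p values of 0.0186, 0.0138, 0.014, 0.0191 and 0.0491. Bcl11b had 479, 569, 307 and 469 CPM in zQ175 and 718, 679.7, 678 and 674 CPM in WT libraries. The WT libraries lay close together while the zQ175 libraries were scattered, with library 3 lowest, and the groups did not overlap. Rxrg showed the same scatter, with 95.9, 81.8, 48.9 and 73.3 CPM in zQ175 and 116, 126, 108 and 127 CPM in WT libraries. The zQ175 library 3 had the highest mitochondrial share of all neuronal libraries (4.31%), and summed oligodendrocyte markers in its group ran from 2033 to 5264 CPM, against 1683 to 2340 CPM in WT N-ZFP libraries. Projection neuron markers were at 6853 to 11230 CPM in zQ175 and 16530 to 18310 CPM in WT libraries (14 of 16 lower, median -0.83). The part of these values in the result was not tested. Leaving out libraries 1 and 3 of both groups, a choice made after the values were seen, left 1 of the 5 calls. Under that choice Bcl11b changed by -0.38 (adjusted p = 0.0538), Foxo1 by -0.46 (0.143), Rarb by -0.37 (0.188) and Foxp2 by -0.12 (0.564), and Rxrg alone passed. Single libraries mattered too: without WT library 1 the adjusted p values were 0.0509 for Bcl11b (-0.58), 0.0525 for Foxo1 (-0.61), 0.0787 for Rarb (-0.43) and 0.159 for Foxp2 (-0.27), and without WT library 2 that of Rxrg was 0.0518 (-0.64). Rarb was also lost without WT library 4 (-0.52, adjusted p = 0.0519), and Foxp2 was kept in 2 of the 8 ways of leaving out 1 library. Same-numbered libraries of these 2 groups deviated together, and with the replicate number as a block Foxp1 passed too (-0.36, adjusted p = 0.0342), as it did without zQ175 library 2 (-0.44, adjusted p = 0.0212).

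In R6/2 mice under A-Delta several of the same genes fell, with more scatter between libraries. Of the 10 genes 4 were lower than in NCAR A-Delta mice and none was higher, where 15.3% of 21752 genes were lower and 13.7% higher. The median log2 change was -0.46 for the 10 and 0.02 for all genes. Foxo1 had 18.6, 12.4, 20.9 and 19.6 CPM in R6/2 and 37.0, 31.4, 49.5 and 45.8 CPM in NCAR mice. No R6/2 library reached the lowest NCAR library (-1.19 ± 0.27, 2.29-fold lower, adjusted p = 0.00121). Rxrg had 48.8, 38.0, 46.5 and 48.0 CPM in R6/2 and 68.7, 78.5, 119 and 108 CPM in NCAR mice (-1.04 ± 0.17, adjusted p = 4.38e-05). Rarb had 65.7, 48.1, 61.5 and 58.3 CPM in R6/2 and 89.8, 86.1, 124 and 115 CPM in NCAR mice (-0.83 ± 0.16, adjusted p = 0.000262). Both receptor genes were thus fully separated between the genotypes. Bcl11b had 183, 114, 182 and 163 CPM in R6/2 and 272, 218, 354 and 309 CPM in NCAR mice, also apart (-0.85 ± 0.27, adjusted p = 0.0182). Without R6/2 library 2 its change was -0.72 (adjusted p = 0.0726), and without NCAR library 3 it was -0.73 (adjusted p = 0.0636).

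Foxp1 (-0.56 ± 0.23, adjusted p = 0.0638) and Meis2 (-0.35 ± 0.17, adjusted p = 0.122) did not pass, although neither overlapped between the groups. Foxp1 had 210.4, 189, 231 and 234 CPM in R6/2 and 283, 264, 371 and 359 CPM in NCAR mice, and DESeq2 gave it an adjusted p of 0.0464. With the length index as a covariate, Foxp1 (-0.61), Foxp2 (-0.28), Meis2 (-0.38) and Ebf1 (0.36) were all called. With only the groups compared in the fit, Foxp1 (-0.57, adjusted p = 0.00441) and Meis2 (-0.36, adjusted p = 0.00724) were called lower. Ebf1 pointed the other way without passing (0.41 ± 0.23, adjusted p = 0.198), with 29.8, 21.5, 31.2 and 32.5 CPM in R6/2 and 18.6, 18.1, 26.9 and 23.3 CPM in NCAR mice. Foxp2, Ikzf1 and Mef2c overlapped, with intervals of -0.61 to 0.13, -0.43 to 0.28 and -0.53 to 0.13. Summed projection neuron markers stood at 2571 to 3707 CPM in R6/2 and 7797 to 11260 CPM in NCAR libraries (14 of 16 lower), and all 6 markers of striatal interneurons were lower too. All 4 markers of neurons in general (median -0.59) and 2 of 6 of cortical excitatory neurons were lower in the same comparison. Oligodendrocyte markers (3 of 5 lower), astrocyte markers (3 of 6 lower) and microglial markers (2 of 8 lower) fell as well, and 1 of 8 vascular markers was higher. The part of all these markers in the changes of the 10 genes was not tested.

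Under A-ZFP, with 3 R6/2 libraries, 6 of the 10 genes were lower in R6/2 than in NCAR mice and none was higher, where 12.0% of genes were lower and 10.2% higher. Foxo1 had 17.0, 17.5 and 16.1 CPM in R6/2 and 42.4, 30.0, 41.3 and 41.2 CPM in NCAR mice (-1.20 ± 0.30, adjusted p = 0.00377). Rxrg had 42.1, 43.7 and 35.8 CPM in R6/2 and 69.3, 59.0, 93.3 and 68.6 CPM in NCAR mice (-0.84 ± 0.19, adjusted p = 0.00176). Rarb had 53.9, 50.6 and 47.2 CPM in R6/2 and 107, 74.6, 98.7 and 80.7 CPM in NCAR mice (-0.84 ± 0.18, adjusted p = 0.000924). All 3 genes were separated between the genotypes, and their calls held without any single library. Bcl11b (-0.97 ± 0.30), Foxp1 (-0.73 ± 0.25) and Meis2 (-0.54 ± 0.18) passed less firmly, with adjusted p values of 0.0183, 0.0341 and 0.0321, and Meis2 overlapped between the groups. The Bcl11b call was lost without NCAR library 1 (-0.87, adjusted p = 0.0507), R6/2 library 2 (-0.97, 0.0607) or R6/2 library 3 (-0.93, 0.0715). Foxp1 and Meis2 each lost the call without NCAR library 1 or 3 or any 1 of the R6/2 libraries, with adjusted p values up to 0.112 and 0.131. Summed projection neuron markers were at 2445 to 2996 CPM in R6/2 and 6667 to 10130 CPM in NCAR libraries (14 of 16 lower). All 6 interneuron markers, 3 of 4 markers of neurons in general and 2 of 5 oligodendrocyte markers were lower as well, and their part in the result was not tested.

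Under N-Delta 3 of the 10 genes were higher in R6/2 than in NCAR mice (Ebf1, Foxp2 and Ikzf1) and 1 was lower (Rxrg), where 27.1% of genes were higher and 28.4% lower. The share of the 10 called higher was thus near that of all genes, and the genotype difference under N-Delta was not tested against that under A-Delta. Ebf1 had 37.6, 42.1, 31.5 and 38.2 CPM in R6/2 and 14.6, 22.5, 16.1 and 16.7 CPM in NCAR mice, with no overlap (1.10 ± 0.23, 2.14-fold higher, adjusted p = 0.000299). Foxp2 had 114, 107, 95.9 and 103 CPM in R6/2 and 61.7, 92.8, 68.3 and 78.7 CPM in NCAR mice, apart by a small gap (0.48 ± 0.18, adjusted p = 0.0247). Ikzf1 at 5.75, 5.72, 4.70 and 5.25 CPM in R6/2 and 2.33, 4.92, 4.12 and 4.38 CPM in NCAR mice overlapped (0.44 ± 0.18, adjusted p = 0.036). The Foxp2 call was lost without NCAR library 1 (0.40, adjusted p = 0.0883), NCAR library 3 (0.44, 0.0648) or R6/2 library 1 (0.44, 0.0626), and the Ikzf1 call without NCAR library 1 (0.26, 0.177), R6/2 library 1 (0.41, 0.0809) or R6/2 library 2 (0.41, 0.0757). Without NCAR library 2 Foxp1 was called higher as well (0.59, adjusted p = 0.0403). Rxrg fell here too, with 51.0, 49.8, 46.3 and 46.2 CPM in R6/2 and 75.9, 95.5, 74.3 and 78.6 CPM in NCAR mice, without overlap (-0.75 ± 0.17, adjusted p = 0.000748).

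Transcript length moved with this comparison. An index of how strongly each library favours long transcripts (the correlation, over protein-coding genes, of a gene's deviation from its mean level with the length of its transcript) was 0.178 to 0.308 in R6/2 N-Delta libraries and -0.485 to -0.241 in NCAR N-Delta libraries. Of the 10 genes 8 have a transcript at or above percentile 83.3 of protein-coding genes in length, while Rarb and Rxrg sit at percentiles 54.4 and 33.8. With the index as a covariate the changes of Bcl11b (-0.72), Foxp1 (-0.53), Meis2 (-0.49), Foxo1 (-0.93) and Rarb (-0.87) were negative and called, that of Rxrg stayed negative, and Ebf1 (0.23, adjusted p = 0.447), Foxp2 (-0.25, 0.22) and Ikzf1 (-0.01, 0.974) were no longer called. The index and the genotype are confounded in these 2 groups, so they cannot be told apart. Markers of hypothalamus and thalamus summed to 11.2 to 16.7 CPM in R6/2 N-Delta libraries and 16.7 to 81.1 CPM in NCAR N-Delta libraries. Projection neuron markers were at 3783 to 4538 CPM in R6/2 and 5451 to 9304 CPM in NCAR libraries (11 of 16 lower). Of the interneuron markers 5 of 6 were lower, and of the microglial markers 4 of 8 were lower and 1 higher. All 3 markers of oligodendrocyte precursors were higher (median 1.30), as were 5 of 8 vascular markers with 1 lower (median 0.71). The part of these lists in the result was not tested. When NCAR mice given N-Delta were set against NCAR mice given A-Delta, 3 of the 10 genes were lower and none higher. Of all 21752 genes 4134 were lower and 3923 higher (37.0% in either direction). The 3 genes were Bcl11b (-0.82 ± 0.27), Foxo1 (-0.75 ± 0.27) and Foxp1 (-0.63 ± 0.23), with adjusted p values of 0.0192, 0.029 and 0.0306. With the index as a covariate none of them was called. None was called either without NCAR N-Delta library 1 (adjusted p values of 0.0988 for Bcl11b, 0.135 for Foxo1 and 0.136 for Foxp1) or without NCAR A-Delta library 3 (0.0662, 0.0891 and 0.0894), and without NCAR N-Delta library 2 Rarb was called too (-0.42, adjusted p = 0.0427). Of the hypothalamus and thalamus markers 4 of 6 were higher under N-Delta than under A-Delta (median 3.64). Lower were 4 of 16 projection neuron markers (median -0.33), 2 of 4 for neurons in general and 2 of 6 for cortical excitatory neurons. All 3 markers of oligodendrocyte precursors (median -0.90) and 4 of 8 vascular markers were lower too. Microglial markers had 2 higher and 1 lower. The part of these markers was not tested.

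Under N-ZFP a single gene passed between R6/2 and NCAR mice, where 4.25% of genes were lower and 3.09% higher. Rarb had 61.4, 59.2, 76.7 and 103 CPM in R6/2 and 138, 96.9, 110 and 96.1 CPM in NCAR mice (-0.56 ± 0.16, adjusted p = 0.0305). The highest R6/2 library, library 4, overlapped the NCAR range. That library was the highest of its group in Bcl11b, Foxp1, Foxp2, Ebf1, Ikzf1, Meis2, Rarb, Rxrg and Foxo1, and had a length index of 0.398. The index of R6/2 N-ZFP libraries 1 to 3 was -0.223, -0.346 and 0.029, and in the NCAR N-ZFP libraries it was 0.145, -0.332, 0.054 and -0.035. Bcl11b showed this most plainly, at 162, 142, 237 and 407 CPM in R6/2 N-ZFP libraries and 374, 203, 352 and 309 CPM in NCAR N-ZFP libraries. Without library 4, 6 of the 10 genes were lower: Bcl11b (-0.78), Foxp1 (-0.69), Meis2 (-0.56), Foxo1 (-1.18) and Rxrg (-0.66) joined Rarb. The calls over all genes went up as well, to 2247 without that library, against 1597 with it. The Rarb call in turn was lost without NCAR library 1 (-0.43) or 3 (-0.56) or R6/2 library 1 (-0.48), 2 (-0.45) or 3 (-0.56), with adjusted p values of 0.0558 to 0.144, and without NCAR library 2 Foxo1 was called as well (-0.94, adjusted p = 0.0341). Of the projection neuron markers 10 of 16 were lower, at 3634 to 7955 CPM in R6/2 and 6827 to 12190 CPM in NCAR libraries. Astrocyte markers (4 of 6, median -0.49), oligodendrocyte markers (2 of 5) and interneuron markers (2 of 6) were lower too, and their part in the result was not tested.

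**Figure D2:**
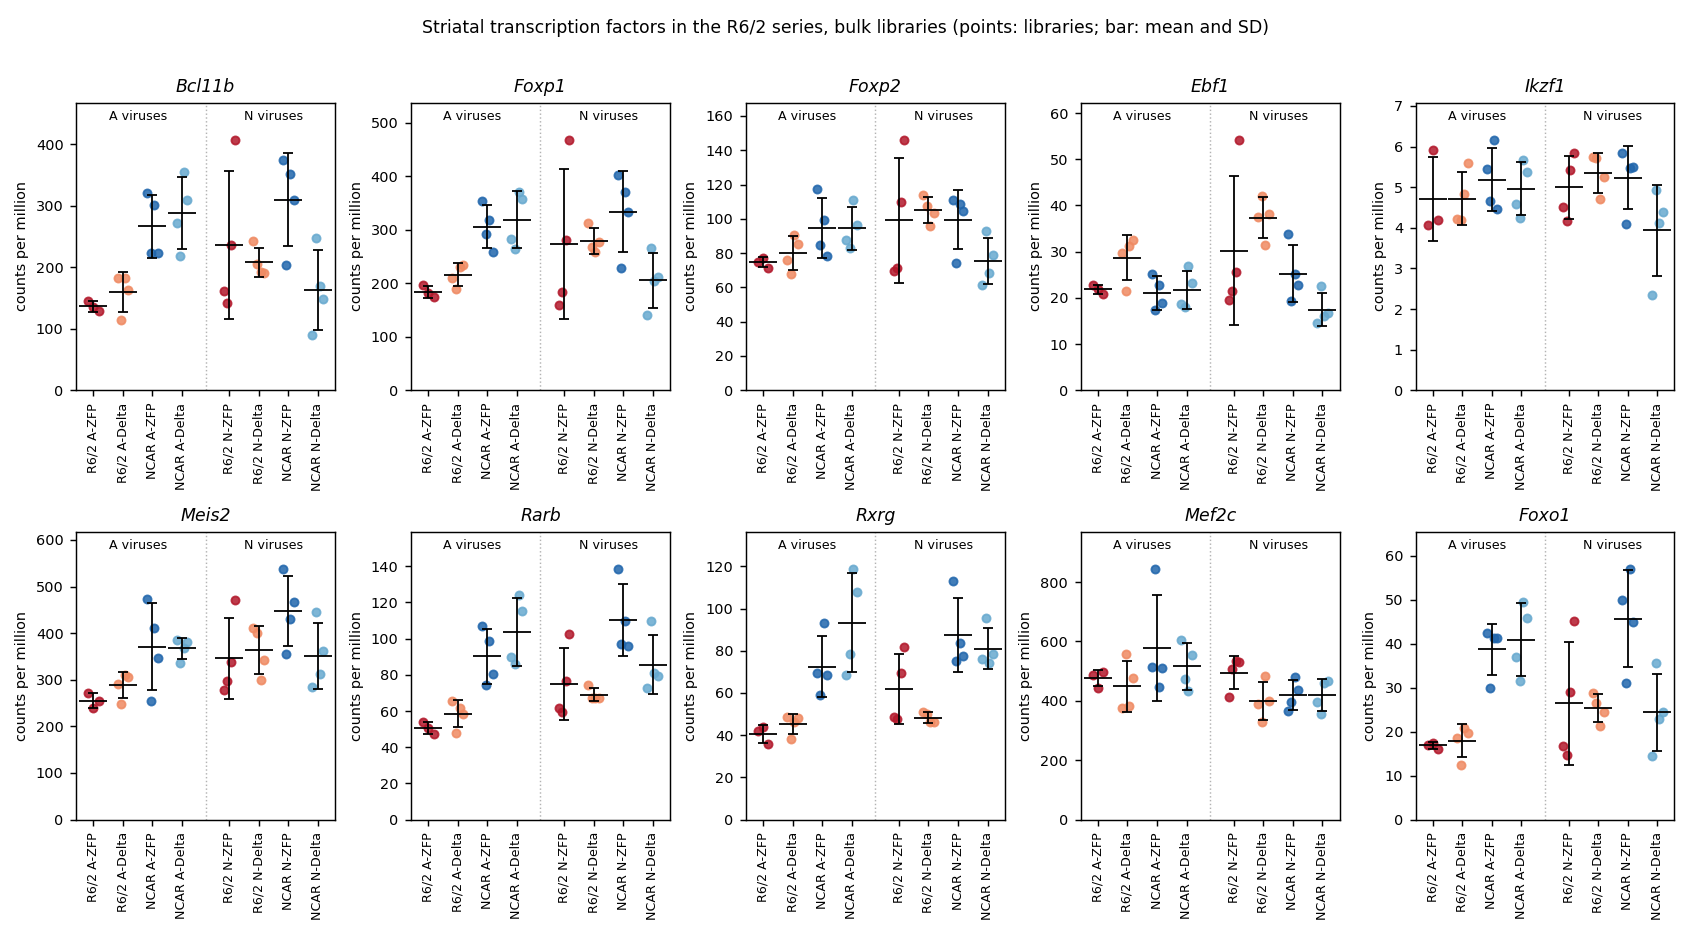
CPM (y axis, from 0) of each transcription factor in every bulk library of the R6/2 series, with A viruses left and N viruses right of the dotted line; points are libraries, bars the group mean and SD. Under the A viruses Rarb, Rxrg and Foxo1 were lower in every R6/2 library than in any NCAR library of the same virus, and under N-ZFP the R6/2 libraries were widely spread, as in Bcl11b from 142 to 407 CPM.

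**Figure D3:**
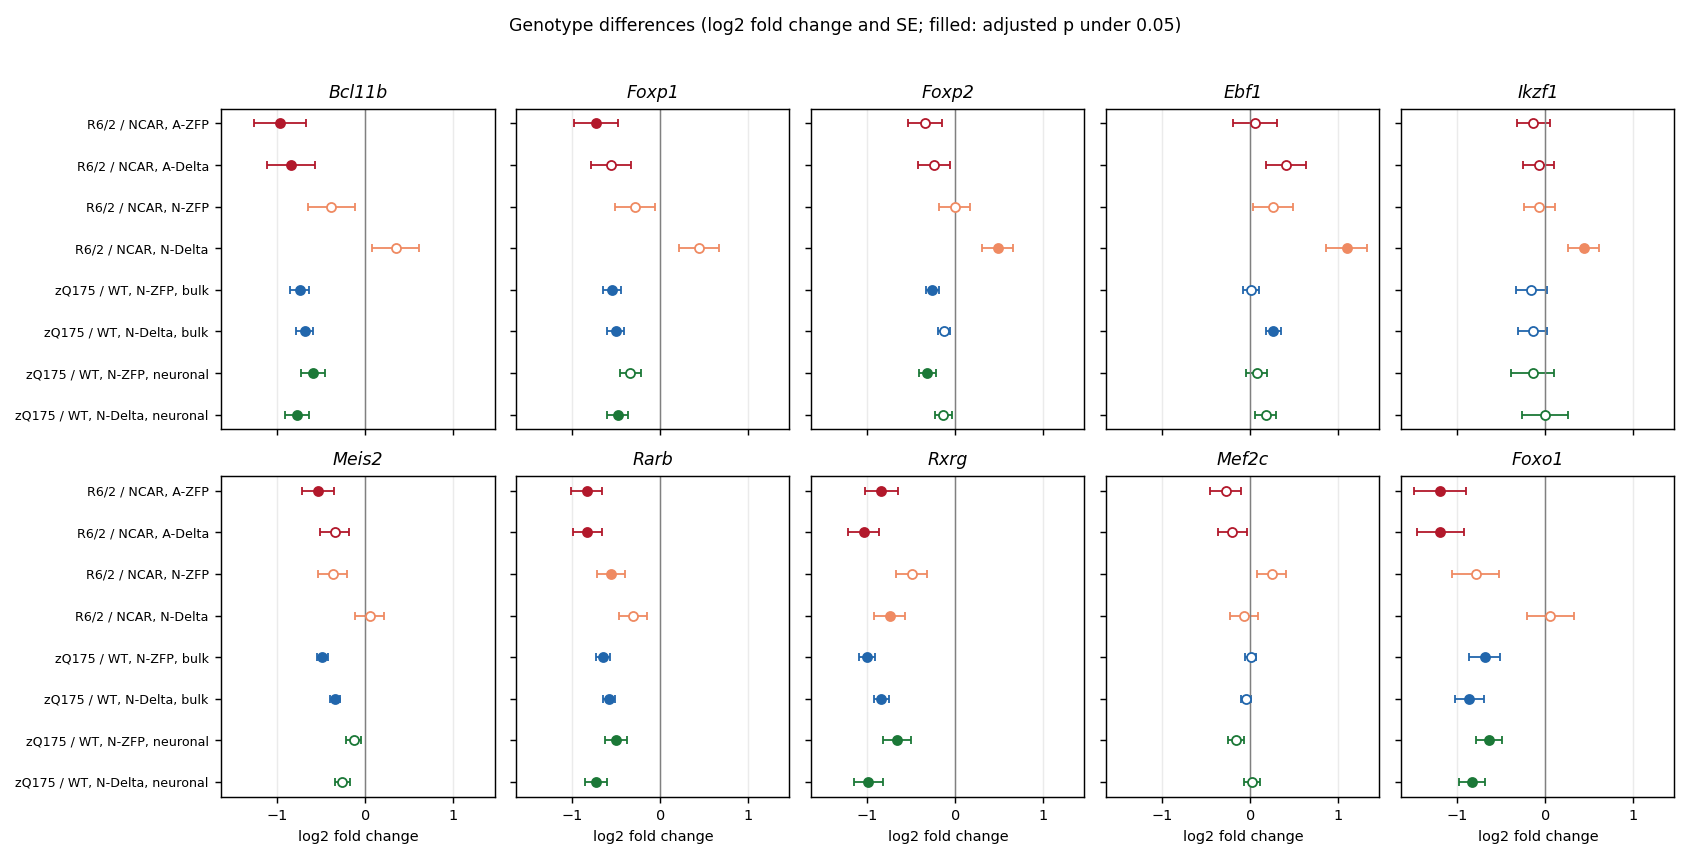
Log2 fold change of mutant over control mice (x axis; points, with SE bars) for each transcription factor in the 8 genotype comparisons (rows); filled points passed an adjusted p under 0.05. Rxrg and Rarb lay left of 0 in all 8 rows, Rxrg between -1.04 and -0.50, and the N-Delta row of the R6/2 series was the one in which Ebf1, Foxp2 and Ikzf1 lay right of 0 and passed.

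Read across the 8 genotype comparisons, none of which shares a library with another although bulk and neuronal RNA may come from the same animals, Rxrg was lower and called in 7 and Rarb in 7, Foxo1 and Bcl11b in 6 each, Foxp1 in 4 and Meis2 in 3. Mef2c was called in none, Ebf1 was called higher in 2 and lower in none, Foxp2 was called lower in 2 and higher in 1, and Ikzf1 was called higher in 1. In the R6/2 series Rxrg was highest in NCAR A-Delta mice (93.4 ± 23.6 CPM) and lowest in R6/2 A-ZFP mice (40.5 ± 4.19 CPM), and in bulk RNA of the other series it was highest in WT N-ZFP (135 ± 15.5 CPM) and lowest in zQ175 N-ZFP mice (66.9 ± 3.29 CPM). Few neighbouring groups in these orders were apart by more than the larger SD: none of 7 neighbour pairs in the R6/2 series and 2 of 3 in the zQ175 bulk libraries for Rxrg, and 2 of 7 and 1 of 3 for Rarb. Mef2c ran from 240.4 ± 7.51 CPM in zQ175 N-Delta mice to 258 ± 13.4 CPM in zQ175 N-ZFP mice in bulk RNA, with none of the 3 neighbour pairs apart.

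The repressor viruses gave few calls among these genes. With edgeR none of the 10 genes was called for A-ZFP over A-Delta in R6/2 mice, where 0.0322% of genes were called, or in NCAR mice, where 0.0184% were. At an unadjusted p under 0.05 there were 835 genes and none of the 10 in R6/2 mice, and 544 genes and 1 of the 10 in NCAR mice; DESeq2 called 21 and 7 genes and none of the 10. In R6/2 mice Bcl11b had 136 ± 8.66 CPM under A-ZFP and 160.4 ± 32.5 CPM under A-Delta (SD, n = 3 and 4). The interval of its log2 change was -0.83 to 0.36, which leaves room for changes in either direction. Rarb (-0.57 to 0.15) and Rxrg (-0.55 to 0.22) had narrower intervals.

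For N-ZFP over N-Delta none of the 10 was called in R6/2 mice with edgeR, where 13.1% of genes were; at an unadjusted p under 0.05 there were 6600 genes and 1 of the 10, and DESeq2 called 3634 genes and none of the 10. Rxrg had 48.8, 47.4, 69.7 and 81.7 CPM in R6/2 N-ZFP and 51.0, 49.8, 46.3 and 46.2 CPM in R6/2 N-Delta libraries. Libraries 3 and 4 under N-ZFP lay above all N-Delta libraries and the other two among them, and the change of 0.36 ± 0.17 did not pass (adjusted p = 0.162). With the length index as a covariate Rxrg (0.55, adjusted p = 0.0201) and Bcl11b (0.56, adjusted p = 0.0314) were called higher, and without R6/2 N-ZFP library 4 Ebf1 was called lower (-0.75, adjusted p = 0.00425). In this R6/2 comparison 7 of 16 projection neuron markers were higher under N-ZFP and 1 was lower (median 0.52). Markers of interneurons (5 of 6) and of neurons in general (2 of 4) were higher too, and 1 of 6 astrocyte markers was lower. The part of these markers in the result was not tested. In NCAR mice N-ZFP gave 3 higher genes of the 10 and none lower. Of all 21752 genes 2563 were higher and 2213 lower (22.0% in either direction). Bcl11b had 374, 203, 352 and 309 CPM under N-ZFP and 89.7, 247, 170 and 148 CPM under N-Delta (0.92 ± 0.27, adjusted p = 0.0254), with library 2 of each group inside the range of the other. Foxo1 (0.91 ± 0.27, adjusted p = 0.0258) and Foxp1 (0.70 ± 0.23, adjusted p = 0.0335) rose too. These calls involve the NCAR N-Delta libraries with their low length index: with the index as a covariate the changes were 0.33, 0.36 and 0.16 for Bcl11b, Foxo1 and Foxp1 and none was called, and Bcl11b and Foxo1 each kept the call in 3, and Foxp1 in 2, of the 8 ways of leaving out 1 library. Without NCAR N-Delta library 1 none passed (adjusted p values of 0.139, 0.14 and 0.166), and without NCAR N-Delta library 2 there were 8 calls, with Ebf1 (0.68), Foxp2 (0.52), Ikzf1 (0.53), Meis2 (0.48) and Rarb (0.51) added, while the calls over all genes stood at 7159, against 4776 with every library. Projection neuron markers also moved between the NCAR N-ZFP and NCAR N-Delta groups, with 6 of 16 higher and 1 lower under N-ZFP (median 0.46). Higher too were 2 of 3 markers of oligodendrocyte precursors (median 0.60) and 3 of 8 vascular markers (1 lower). Their part in the result was not tested.

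The difference of the N-ZFP effect between R6/2 and NCAR mice was called for Ebf1 alone among the 10 (-0.84 ± 0.33, adjusted p = 0.049), where 32.3% of all genes were called. Ebf1 changed by -0.31 ± 0.23 under N-ZFP in R6/2 mice and by 0.53 ± 0.23 in NCAR mice, neither of which passed. The call was kept in 5 of 22 alternatives and was lost with the length index (-0.07, adjusted p = 0.932). Without R6/2 N-ZFP library 4 there were 6 calls, as Bcl11b (-1.13), Foxp1 (-1.13), Foxp2 (-0.74), Meis2 (-0.61) and Foxo1 (-1.24) passed too, and 9451 genes were called in all, against 7028 with that library. For the same difference all 3 markers of oligodendrocyte precursors (median -1.24) and 4 of 8 vascular markers (median -0.73) were lower. Of the interneuron markers 4 of 6 were higher, and 0 of 16 projection neuron markers were called. The part of these markers in the result was not tested. In R6/2 mice the effects of N-ZFP and A-ZFP did not differ by the test for any of the 10 genes, where 1.22% of all genes were called with edgeR; at an unadjusted p under 0.05 there were 2796 genes and none of the 10, and DESeq2 called 561 genes and none of the 10. Rxrg had the largest estimate among the 10, 0.52 ± 0.26, with an interval of 0.00 to 1.04.

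In the zQ175 series no gene of the set passed for N-ZFP over N-Delta. With edgeR 0.0% of all genes were called in zQ175 bulk RNA, 0.0% in WT bulk RNA, 0.329% in zQ175 neuronal RNA and 0.126% in WT neuronal RNA. At an unadjusted p under 0.05 there were 922, 1384, 4811 and 958 genes and 0, 1, 2 and 5 of the 10, in that order, and DESeq2 called 0, 20, 1911 and 83 genes and none of the 10. In zQ175 bulk RNA the intervals were narrow, such as -0.18 to 0.23 for Bcl11b, -0.11 to 0.19 for Rarb and -0.30 to 0.06 for Rxrg. Against WT N-Delta mice these genes had fallen by 0.69, 0.59 and 0.84, in a comparison that shares the zQ175 N-Delta libraries. In zQ175 neuronal RNA Meis2 had 550, 504, 513 and 456 CPM under N-ZFP and 452, 401, 449 and 434 CPM under N-Delta. The groups did not overlap, but the change of 0.22 ± 0.08 missed the threshold (adjusted p = 0.11). In WT neuronal RNA Rxrg had 116, 126, 108 and 127 CPM under N-ZFP and 219, 152, 144 and 149 CPM under N-Delta, also without overlap (-0.48 ± 0.16, adjusted p = 0.502), and Ikzf1 had 9.04, 6.48, 8.91 and 7.68 CPM under N-ZFP and 6.00, 5.45, 4.35 and 4.51 CPM under N-Delta (0.66 ± 0.25, adjusted p = 0.66). None of these 3 is a call.

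**Figure D4:**
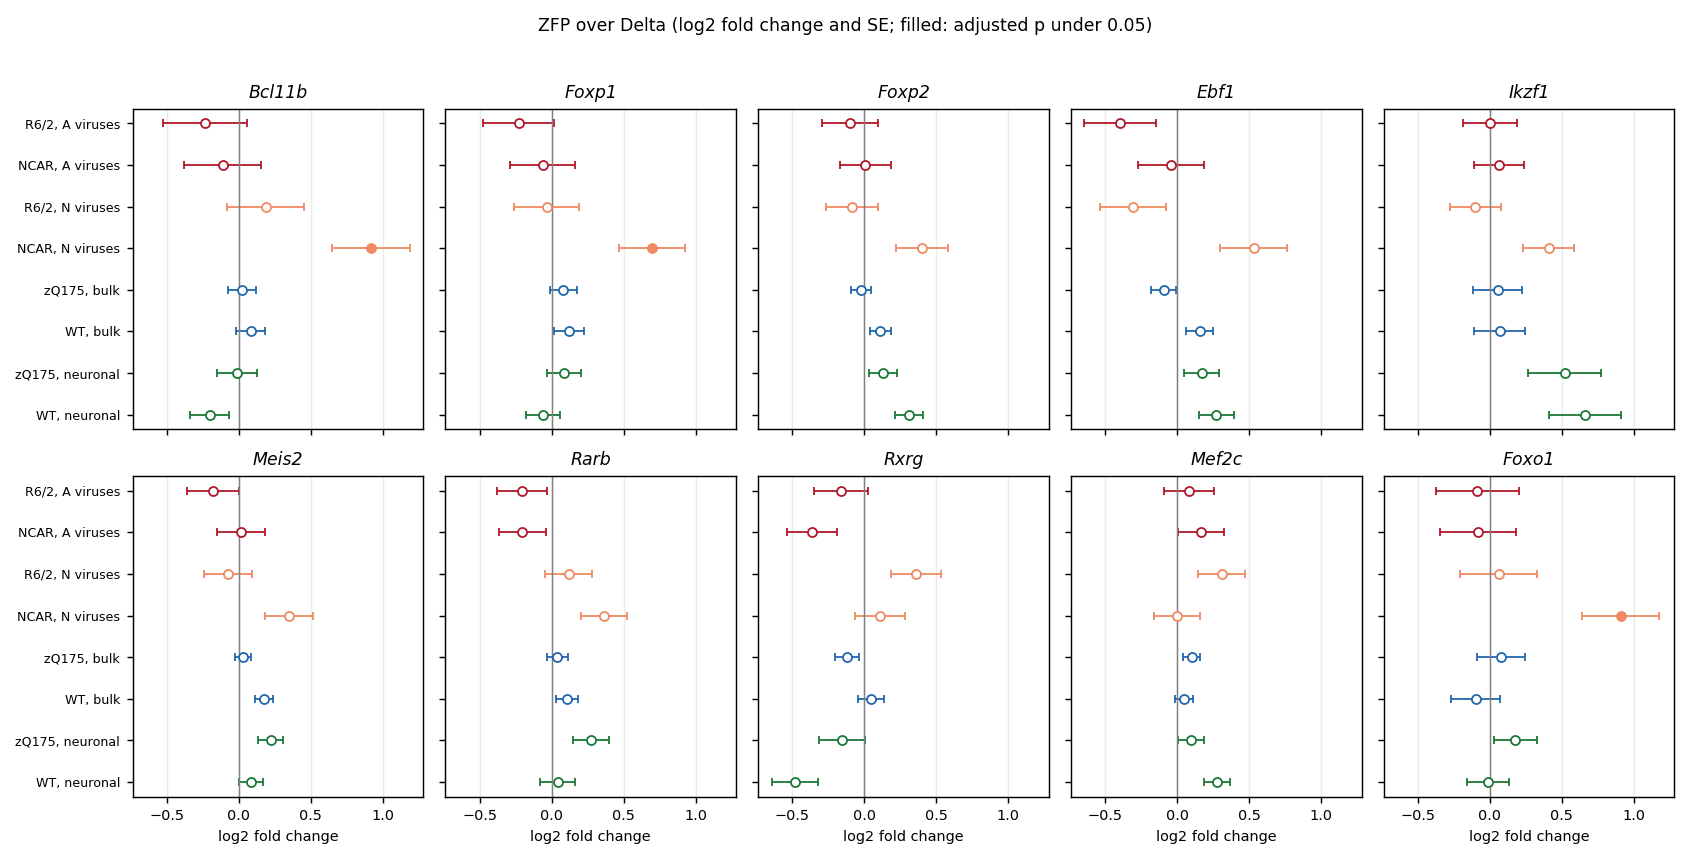
Log2 fold change of a ZFP virus over its Delta virus (x axis; points, with SE bars) for each transcription factor in the 8 settings (rows); filled points passed an adjusted p under 0.05. The 3 filled points, Bcl11b (0.92), Foxo1 (0.91) and Foxp1 (0.70), all belong to NCAR mice given N viruses.

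Neuronal RNA was richer in most of these genes than bulk RNA of the same group. In WT N-Delta mice 8 of the 10 were higher in neuronal libraries and none was lower. Of all 17702 genes 4652 were higher and 5237 lower (55.9% in either direction). The median log2 difference of the 10 was 0.43, against -0.04 for all genes. Foxo1 had 194, 147, 132 and 123 CPM in neuronal and 105, 58.6, 88.3 and 63.4 CPM in bulk libraries (0.98 ± 0.17, adjusted p = 2.63e-05). Bcl11b had 905, 794, 751 and 718 CPM in neuronal and 514, 372, 436 and 361 CPM in bulk libraries (0.97 ± 0.13, adjusted p = 7.95e-07). In both genes the groups stood apart, with every neuronal library above every bulk library. Foxp1 (0.71 ± 0.12), Ebf1 (0.52 ± 0.11), Foxp2 (0.45 ± 0.09), Rxrg (0.41 ± 0.14), Rarb (0.37 ± 0.11) and Mef2c (0.26 ± 0.08) followed. The Rxrg call was lost without neuronal library 1 (0.26, adjusted p = 0.0851). Bulk and neuronal libraries with 1 number may share an animal and are treated here as independent; with that number as a block 8 of the 10 were called.

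Meis2 and Ikzf1 did not share this. Meis2 had 582, 507, 483 and 513 CPM in neuronal and 578, 504, 504 and 523 CPM in bulk libraries, with overlapping ranges (0.04 ± 0.07, interval -0.11 to 0.19). With length and GC offsets Meis2 was called higher in neuronal RNA (0.18, adjusted p = 0.0486). Ikzf1 had 6.00, 5.45, 4.35 and 4.51 CPM in neuronal and 8.48, 4.99, 7.65 and 7.34 CPM in bulk libraries (-0.43 ± 0.21, adjusted p = 0.0891), and was called lower without bulk library 2 (-0.55, adjusted p = 0.0385). Markers of several other cell types were lower in neuronal libraries. The 8 microglial markers summed to 20.0 to 22.5 CPM in neuronal and 405 to 525 CPM in bulk libraries, and all 8 were lower. All 8 vascular markers were lower as well. All 5 oligodendrocyte markers, at 1288 to 2171 CPM in neuronal and 5225 to 7354 CPM in bulk libraries, and 5 of 6 astrocyte markers, at 1282 to 2167 CPM in neuronal and 4461 to 5658 CPM in bulk libraries, were lower but still well detected. None of the 6 cortical excitatory or 3 choroid plexus markers was called, and the choroid plexus sums were 13.5 to 39.3 CPM in neuronal and 7.63 to 25.4 CPM in bulk libraries. In contrast, 14 of 16 projection neuron markers were higher, with a median of 0.76. How the libraries were prepared also differs between the 2 kinds of RNA and cannot be told apart from the cells they represent. Per kb of merged exons the order in neuronal RNA was Bcl11b (97.6 ± 10.1 CPM per kb), Rxrg (72.4 ± 15.4), Foxp1 (61.5 ± 9.79), Meis2 (43.3 ± 3.53), Rarb, Mef2c, Foxo1, Foxp2, Ebf1 and Ikzf1 (0.879 ± 0.136 CPM per kb). Rxrg with Foxp1 and Mef2c with Foxo1 were the neighbours within each other's SD. This order too depends on the length chosen.

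**Figure D5:**
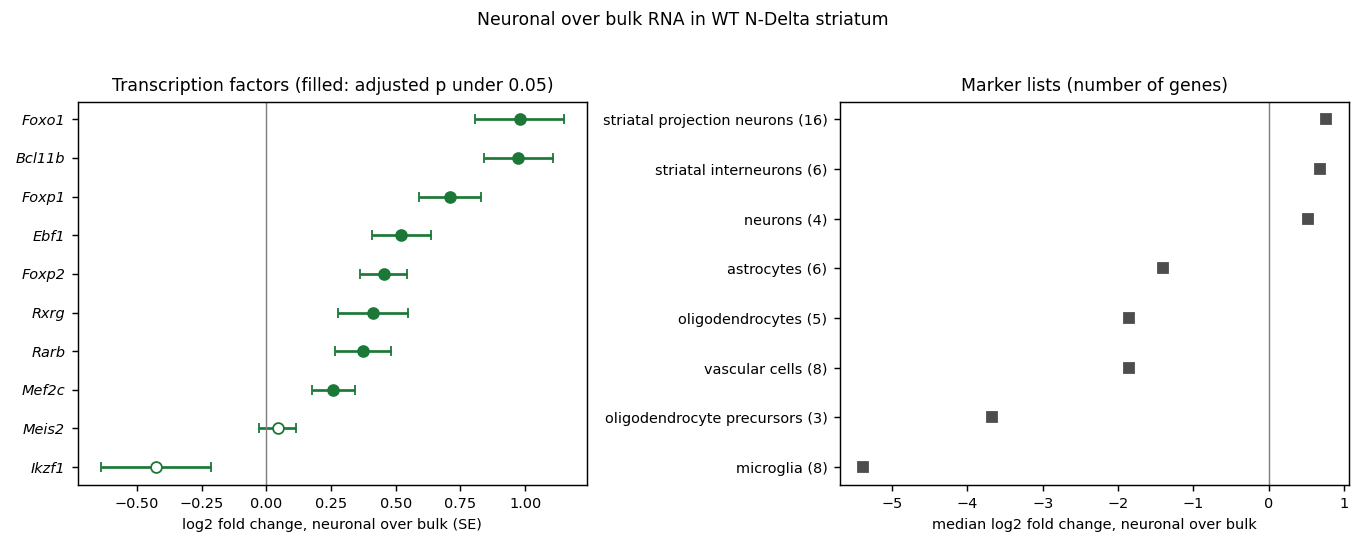
Left, log2 fold change of neuronal over bulk RNA in WT N-Delta mice (x axis, with SE bars) for the 10 transcription factors, filled where the adjusted p was under 0.05; right, the median log2 fold change of marker lists for cell types, with the number of genes in parentheses. Bcl11b and Foxo1 lay near 0.98 and Ikzf1 at -0.43, while microglial markers lay at -5.38.

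Relatives of the 10 genes in the same families were listed as well. Of 22 listed paralogs, 1 of 19 tested was lower and 1 higher in zQ175 over WT N-Delta bulk RNA, with a median log2 change of -0.05. The lower one was Foxo6 (-0.54 ± 0.13), a forkhead factor of the same family as Foxo1, and the higher one Ikzf2 (0.39 ± 0.12), which encodes Helios. In neuronal RNA Foxo6 was again lower (-0.67 ± 0.18) and was the only paralog called. In R6/2 over NCAR A-Delta mice 3 of 20 were lower and 5 higher. Ikzf5 (0.36 ± 0.06) and Ikzf2 (0.73 ± 0.17) rose and Mef2d (-0.56 ± 0.15) and Ikzf3 (-0.98 ± 0.27) fell. In neuronal over bulk RNA 9 of 19 paralogs were higher and 3 lower, where 4652 of 17702 genes were higher and 5237 lower. Mef2d stood at 0.85 ± 0.13 and Foxo4 at -0.89 ± 0.13. Under N-ZFP 3 of 19 paralogs were lower in zQ175 bulk RNA and 1 of 18 higher in zQ175 neuronal RNA. In R6/2 mice 9 of 20 were higher and 2 lower under N-Delta, 1 higher and 3 lower under A-ZFP, and 1 higher and 1 lower under N-ZFP.

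A further list of 17 striatal transcription factors gave 3 lower of 15 tested and none higher in zQ175 over WT N-Delta bulk RNA (median -0.15). They included Tshz1 (-0.21 ± 0.06) and Six3, a homeobox factor of indirect-pathway neurons in mice (-0.52 ± 0.17). In neuronal RNA 1 of 15 was lower and none higher, and in R6/2 over NCAR A-Delta mice 2 of 17 were lower and none higher. Six3 was 1.04 ± 0.19 in neuronal over bulk RNA, in which 8 of 15 were higher. Under N-ZFP 4 of 15 were lower in zQ175 bulk RNA and 1 of 15 in zQ175 neuronal RNA. In R6/2 mice 2 of 17 were lower under A-ZFP and 1 under N-ZFP, while 8 of 17 were higher under N-Delta, the comparison in which the length index also differed.

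Among 14 genes of retinoid synthesis, transport and breakdown, 1 of 11 tested was lower in zQ175 over WT N-Delta bulk RNA and 1 of 10 in neuronal RNA. It was Dhrs3 in both cases, the enzyme that returns retinaldehyde to retinol, at -0.72 ± 0.10 in bulk and -1.996 ± 0.24 in neuronal RNA. In R6/2 over NCAR A-Delta mice 6 of 13 were lower and none higher (median -0.68). Besides Dhrs3 (-0.89 ± 0.13) they included Cyp26b1, which degrades retinoic acid (-1.69 ± 0.29), Aldh1a1, which makes it (-0.68 ± 0.15), and Rbp4, a retinol carrier (-0.92 ± 0.21). Under A-ZFP 4 of 13 were lower in R6/2 mice, under N-ZFP 2, and under N-Delta 8 with 1 higher. Neuronal over bulk RNA had 6 of 11 lower and 2 higher, with Aldh1a1 at -1.88 ± 0.18. The list counts stand beside these shares of all genes. In zQ175 N-Delta mice 9.57% were lower and 6.44% higher in bulk RNA, and 6.03% and 3.33% in neuronal RNA. Under N-ZFP these shares were 8.23% and 4.69% in bulk and 5.29% and 3.67% in neuronal RNA. In R6/2 mice 15.3% were lower and 13.7% higher under A-Delta, and 28.4% and 27.1% under N-Delta. They were 12.0% and 10.2% under A-ZFP and 4.25% and 3.09% under N-ZFP. In neuronal over bulk RNA 4652 of 17702 genes were higher and 5237 lower.

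The genes whose log2 CPM followed each factor most closely over the 31 R6/2 series libraries, out of 12282 protein-coding genes that averaged 2 CPM or more, are given as a description; the libraries share depth, RNA quality and tissue makeup. For Rarb the closest was Dgkb (r = 0.982, and 0.971 in the zQ175 bulk libraries), a diacylglycerol kinase gene. For Rxrg they were Kcnab1 (r = 0.96, and 0.987 in the zQ175 bulk libraries) and Dgkb (r = 0.956, and 0.953 in the zQ175 bulk libraries). Bcl11b was followed by Pdzd2 (r = 0.98, and 0.947 in the zQ175 bulk libraries) and Smpd3 (r = 0.978, and 0.988 in the zQ175 bulk libraries), Foxp1 and Foxp2 both by Akap5 (r = 0.971 and 0.925), Foxo1 by Cacng4 (r = 0.971, and 0.956 in the zQ175 bulk libraries) and Meis2 by Gucy1a1 (r = 0.9, and 0.918 in the zQ175 bulk libraries). For these genes the correlation was of similar size over the 15 zQ175 bulk libraries. It was not for Ebf1 with Sbf2 (r = 0.94, and 0.034 in the zQ175 bulk libraries), for Mef2c with Fhod3 (r = 0.89, and 0.297 in the zQ175 bulk libraries) or for Ikzf1 with Fam120a (r = 0.861, and 0.471 in the zQ175 bulk libraries).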

How the data were processed

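Total RNA libraries (a stranded kit with ribosomal depletion, per the labels' protocols) of 62 samples were used as 1 deposited table of raw gene counts for 48795 genes, made by the authors with STAR and HTSeq on mm10, per the submitters' processing notes. Tool versions, the strand setting and the annotation release are not given in the sources used here. Each column was matched to its sample by name, and no column was left over. Symbols came from the GENCODE M21 annotation, in which 48349 identifiers had a match and 446 had none.

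Counts were fitted as deposited with edgeR 4.0.16 (limma 3.58.1, R 4.3.3) in 3 sets, R6/2 bulk, zQ175 bulk and neuronal, with a further joint fit of all 31 zQ175 series libraries for neuronal against bulk RNA. Genes were filtered with filterByExpr by group, libraries were TMM-scaled, and contrasts between group coefficients were tested with quasi-likelihood F tests, with Benjamini-Hochberg adjustment over all genes tested and calls at an adjusted p under 0.05. SE is the fold change divided by the root of F, and 95% intervals use the fit's degrees of freedom. CPM are TMM-scaled within a set, so levels set side by side across sets are a description. A count of 0 corresponds to at most 0.0296 to 0.0609 CPM in R6/2 bulk, 0.268 to 0.346 CPM in zQ175 bulk and 0.246 to 0.651 CPM in neuronal libraries (3 counts, for counting error only), and the 10 genes were above this in every library. The fit was also run on simulated counts with 200 changed genes, as a check of the code. These had the same spread for every gene and no trend with transcript length. That run therefore says nothing of how the fit performs on libraries as scattered as these.

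The genes, lists and markers were chosen with earlier results of these data known. The 10 genes are described in full. Of each list, the genes named are the up to 4 called genes with the smallest p in a comparison. Some genes that these rules select are not reported here. The most similar genes are those with the highest Pearson correlation of log2 CPM over the R6/2 bulk libraries. RefSeq promoters of GRCm38.p6 were searched on both strands. Alternatives were DESeq2 1.42.0 with its size factors, no filter, only the groups compared, a length index as a covariate, length and GC offsets (splines with 5 degrees of freedom), a replicate block, and each library left out in turn. Replicate numbers come from the sample titles, and the labels do not say that they mark a litter or a day. Same-numbered libraries deviated together most clearly in zQ175 and WT N-ZFP neuronal libraries (correlations of 0.228 to 0.687). Smaller correlations, all positive, were seen for neuronal over bulk RNA in WT N-Delta mice (0.037 to 0.263) and for N-ZFP over N-Delta in WT bulk RNA (0.041 to 0.216). In every other comparison checked, some same-numbered pairs correlated negatively.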

Additional observations from a re-analysis of the deposited data

Results flagged for a closer look

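In groups of 4 libraries, a library was singled out where its gap to the nearest other library took up most of the range of its group. Chance alone marks about 1 in 20 groups, and 6 of 140 were marked here, so the number is no larger than chance gives. WT N-Delta neuronal library 1 was high for Foxp1, at 1047 CPM with the other 3 libraries at 760.7 to 798.9 CPM, and for Rxrg, at 219.1 CPM with the others at 144.1 to 152.4 CPM. WT N-ZFP neuronal library 1 was high for Bcl11b, at 718.2 CPM with the others at 674.3 to 679.7 CPM. In zQ175 N-Delta neuronal libraries Bcl11b was low in library 2, at 414.5 CPM with the others at 473.8 to 478.8 CPM. In R6/2 N-Delta bulk libraries Rarb was high in library 1, at 74.47 CPM with the others at 67.20 to 67.43 CPM. In NCAR A-ZFP bulk libraries Foxo1 was low in library 2, at 30.0 CPM with the others at 41.18 to 42.4 CPM.

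The effect of N-ZFP on Ebf1 differed between R6/2 and NCAR mice by -0.8383 on the log2 scale (edgeR, adjusted p = 0.049), the only such difference called among the 10 genes, and it was lost in most alternatives.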

How the results depend on the processing

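The falls of Rarb, Rxrg and Foxo1 in R6/2 mice under both A viruses, of Bcl11b, Foxp1, Meis2, Rarb, Rxrg and Foxo1 in zQ175 bulk RNA under N-Delta, and of Bcl11b, Rarb, Rxrg and Foxo1 in zQ175 neuronal RNA under N-Delta held under every alternative run. The counts of calls in this section are given without the counts over all genes under the same settings. A change in them is therefore not read as particular to the 10 genes. Calls among the 10 genes moved most with the length index as a covariate. It gave 8 calls in R6/2 over NCAR A-Delta (1 higher and 7 lower, against 4), 6 under N-ZFP (against 1), 2 for N-ZFP in R6/2 mice (against 0), and 0 for N-ZFP in NCAR mice (against 3), for the difference of the N-ZFP effects (against 1) and for N-Delta over A-Delta in NCAR mice (against 3). In R6/2 over NCAR N-Delta it turned the changes of Bcl11b (-0.72), Foxp1 (-0.53), Foxp2 (-0.25), Ikzf1 (-0.013), Meis2 (-0.49) and Foxo1 (-0.93), and in N-Delta over A-Delta that of Foxp1 (0.089). Length and GC offsets turned Foxo1 in R6/2 over NCAR N-Delta (-0.43) and gave 2 calls in R6/2 over NCAR N-ZFP, 0 for the difference of effects and 0 for N-Delta over A-Delta. The causes were not tested.

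Fitting only the groups compared gave 0 calls in R6/2 over NCAR N-ZFP, in zQ175 over WT N-ZFP neuronal RNA (against 5), for N-ZFP in NCAR mice and for the difference of effects, a fit with fewer samples. This setting also added calls. In R6/2 over NCAR A-Delta Foxp1 (-0.57, adjusted p = 0.00441) and Meis2 (-0.36, adjusted p = 0.00724) were called lower. Under N-Delta in the same mice Foxp1 was called higher (0.44, adjusted p = 0.0365) and Rarb lower (-0.31, adjusted p = 0.0442), while Ikzf1 was lost. Meis2 in zQ175 over WT N-Delta neuronal RNA was called lower too (-0.26, adjusted p = 0.00756). DESeq2 gave 2 calls in R6/2 over NCAR N-ZFP, and without the filter the difference of effects had 0. Leaving out libraries 1 and 3 of both neuronal N-ZFP groups, chosen after seeing the data, left 1 call of 5.

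With a replicate block there were 2 calls in R6/2 over NCAR N-ZFP, where Foxo1 was gained (-0.91, adjusted p = 0.0227), 0 for N-ZFP in NCAR mice (adjusted p values of 0.0904 to 0.0993) and 0 for the difference of effects (Ebf1, adjusted p = 0.0564). The block also ended the calls of Ebf1 in zQ175 over WT N-Delta bulk RNA (0.0732) and Foxp2 in N-ZFP bulk RNA (0.0597). Deviations of same-numbered libraries correlated at -0.226 to 0.317 in R6/2 over NCAR N-ZFP and at -0.295 to 0.153 for N-ZFP in NCAR mice. In zQ175 over WT bulk RNA they correlated at -0.17 to 0.199 under N-Delta and at -0.141 to -0.01 under N-ZFP. Whether the numbers pair the libraries is not stated in the labels, and these values cannot settle it.

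Leaving out 1 library at a time gave 3 to 4 calls in R6/2 over NCAR A-Delta, 2 to 5 under N-Delta, 3 to 6 under A-ZFP and 0 to 6 under N-ZFP. In zQ175 over WT mice it gave 6 to 7 calls in bulk and 4 to 5 in neuronal RNA under N-Delta, and 5 to 7 in bulk and 1 to 6 in neuronal RNA under N-ZFP. For N-ZFP over N-Delta there were 0 to 1 calls in R6/2 and 0 to 8 in NCAR mice, with 0 to 6 for their difference, 0 to 4 for N-Delta over A-Delta and 7 to 9 for neuronal over bulk RNA. The other comparisons had 0 throughout. Depth limits Ikzf1 most, with 13 counts in its shallowest library.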
